A study of Mus musculus with 12 samples.

Results

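Genes that YAP/TEAD and SRF are known to activate were followed in mouse embryonic stem cells (ESCs) grown in 2i or serum. The genes are Ctgf, Cyr61, Ankrd1, Thbs1, Srf, Acta2, Tagln, Cnn1 and Vcl. They were chosen by name, with earlier results of these data known, and make up 9 of the 26061 genes with deposited expression values. Poly(A) RNA-seq libraries had been made from stable lines of Tet2 KO ESCs, in which PiggyBac vectors brought back either wildtype (WT) TET2 or a catalytic mutant (H1304Y, D1306A). All cells also carried an shRNA against Setdb1 (shSetdb1), which encodes the H3K9 methyltransferase whose depletion the study examined, and had been selected in puromycin for 3 days from 48 hours after infection. The 4 groups were the WT rescue line in 2i, the mutant rescue line in 2i, the WT rescue line in serum and the mutant rescue line in serum, with 3 libraries each. Serum medium contained 15% fetal bovine serum with LIF and holds ESCs in the primed state, whereas 2i medium contained N2, B27, LIF, PD0325901, which inhibits the kinase MEK, and CHIR99021, which inhibits the kinase GSK3, and holds them in the naïve state. The media therefore differ in several components at once, and the parts that serum and the inhibitors play in a difference cannot be told apart. The promoter of the TET2 vectors and the number of clones behind each line are not given in the sources used here. Libraries without shSetdb1 were not analysed here, so every value below was measured after SETDB1 depletion.

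YAP and its paralogue TAZ (encoded by Wwtr1) are the transcriptional coactivators at the end of the Hippo pathway, whose kinases keep them out of the nucleus. When they enter the nucleus they bind TEAD factors and activate genes such as Ctgf and Cyr61. SRF binds CArG boxes and works with MRTF coactivators, which actin polymerisation releases, or with ternary complex factors, which ERK phosphorylates. Serum is known to stimulate both systems in many cell types, and the contractile genes among the SRF targets are best known from smooth muscle.

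The promoters show which members carry the letters of these binding motifs near the start of the gene. Promoter sequences from RefSeq (build GRCm38.p6, 250 bases before to 50 after the start) were found for 6 of the 9 members, namely Cyr61 (listed as Ccn1), Ankrd1, Srf, Acta2, Cnn1 and Vcl. The CArG box was searched by its exact consensus (CC, 6 bases that are A or T, GG) and the TEAD motif as GGAATG, which reads CATTCC on the other strand. Boxes that depart from the consensus by a base, and sites outside these stretches, were not searched. A promoter without a match may therefore still hold such a box. A CArG box was found in 2 of the 6 promoters (Srf and Vcl) and in 1.57% of all 27025 promoters of this length. The TEAD letters were found in 4 of the 6 (Cyr61, Ankrd1, Acta2 and Vcl) and in 14.6% of all promoters, and Cnn1 held neither. The stretches below are shown because they set a secreted target that rose in serum (Cyr61) beside a TEAD target with hardly any reads (Ankrd1), and Srf beside Vcl, which did not pass the test between media. They are written 5′ to 3′ on the strand of the gene with the motifs in capitals, and a match is a description of letters, not of a bound site.
Cyr61, chr3:145650053-145650118, minus strand: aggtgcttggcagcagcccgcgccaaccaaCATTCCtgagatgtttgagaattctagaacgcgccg
Ankrd1, chr19:36119932-36120084, minus strand: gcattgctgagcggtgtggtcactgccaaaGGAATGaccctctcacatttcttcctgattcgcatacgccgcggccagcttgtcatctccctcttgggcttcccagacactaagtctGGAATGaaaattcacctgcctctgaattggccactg
Srf, chr17:46556185-46556274, minus strand: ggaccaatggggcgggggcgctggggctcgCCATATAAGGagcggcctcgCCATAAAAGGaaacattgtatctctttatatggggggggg
Vcl, chr14:20929148-20929290, plus strand: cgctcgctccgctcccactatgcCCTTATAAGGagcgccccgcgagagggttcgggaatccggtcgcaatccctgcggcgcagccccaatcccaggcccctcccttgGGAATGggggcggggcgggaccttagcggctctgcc
The CATTCC of Cyr61 begins 103 bases before the start, and Ankrd1 has GGAATG 210 and 123 bases before it. Srf has CArG boxes 82 and 62 bases before its start, while Vcl has its CArG box at 227 and GGAATG at 143.

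Libraries held between 8066662 and 21335933 gene reads, which were recovered from the deposited log2-scale values as whole numbers. Normalised reads are these reads divided by the size factor of the library. Differences are on the deposited log2 scale, which compresses low counts, and were tested with limma over the 14185 genes whose mean lay at least 1 above the value of a count of 0. A gene was called at a p under 0.05 after adjustment over all these genes. Setdb1 lay between 149 and 347 normalised reads in the 12 libraries, and the difference between serum and 2i was 0.44 (SE 0.18, adjusted p = 0.0472, limma). Tet2 RNA, which includes the rescue constructs, lay between 6786 and 16370 normalised reads in the WT line and 1525 and 3918 in the mutant line in 2i. In serum it lay between 24400 and 34790 in the WT line and 5756 and 9846 in the mutant line, so Tet2 moved with both rescue line and medium, and its part in the results below was not tested. All 9 ESC markers were tested, with a summed level of 3410 to 5200 RPKM (reads per kilobase of exon, scaled to a common number of gene reads per library) per library. In serum against 2i, where 51.8% of all genes tested were called, Utf1 and Zfp42 were higher, Nanog, Dppa5a and Klf4 were lower, and the other 4 were not called. The call of Klf4 was lost with 3 and that of Dppa5a with 1 of the 12 libraries left out.

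The secreted targets Ctgf and Cyr61 rose from 2i to serum in both rescue lines, and Thbs1 went from no read to a low level. In WT cells the mean normalised read count of Ctgf, which encodes a matricellular protein of the CCN family, was 159 ± 55.6 (SD, n = 3) in 2i and 440.2 ± 30.4 in serum, and in mutant cells it was 128 ± 19.2 and 484 ± 57.2. By library, Ctgf had 221, 113 and 143 normalised reads in WT cells and 145, 107 and 131 in mutant cells in 2i. In serum it had 472, 436 and 412 in WT and 439, 548 and 463 in mutant cells. The lowest serum library thus lay above the highest 2i library, and within each medium the libraries of the rescue lines overlapped. On the log2 scale of the deposited values the difference between serum and 2i, averaged over the rescue lines, was 1.55 (SE 0.14, adjusted p = 1.94e-07, limma), or 3.22-fold in mean normalised reads. It was 1.37 in WT cells (adjusted p = 7.23e-05) and 1.73 in mutant cells (adjusted p = 8.3e-06, limma). Ctgf lies at chr10:24315248-24318489 of mm9 on the plus strand. Exons of Gm15270 on the other strand overlap 570 of its 2490 exon bases, and because the libraries were not directional the reads there cannot be assigned to a strand. Gm15270 had 28 to 159 reads per library and was higher in serum by 0.62 (adjusted p = 0.00265, limma).

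Cyr61 encodes another matricellular CCN protein and lies at chr3:145309935-145312949 on the minus strand of mm9. It had 80.6, 49.7 and 39.2 normalised reads in WT cells and 111, 96.6 and 70.6 in mutant cells in 2i. In serum it had 469, 485 and 597 in WT cells and 456, 536 and 338 in mutant cells. Every serum library was above every 2i library, the lowest serum library being a mutant one. The difference over both lines was 2.37 (SE 0.16, adjusted p = 5.45e-09, limma), or 6.44-fold in mean normalised reads. It was 2.76 in WT cells (adjusted p = 1.74e-07) and 1.98 in mutant cells (adjusted p = 6.14e-06, limma).

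Thbs1 encodes thrombospondin 1, a secreted glycoprotein of the extracellular matrix, and lies at chr2:117937612-117952869 on the plus strand of mm9. No read of Thbs1 was found in any of the 6 libraries in 2i, among 80159845 gene reads. In serum it had 48.6, 38.6 and 68.9 normalised reads in WT cells and 19.3, 26.9 and 21.2 in mutant cells, which came from 14 to 130 reads per library. Set against a floor of 3 reads over all 2i libraries, its mean level was at least 83.2-fold higher in serum, and within the rescue lines at least 49.5-fold higher in WT and at least 28.8-fold higher in mutant cells. The fitted log2-scale difference was 2.08 (SE 0.13, adjusted p = 2.34e-09, limma) but is not a bound, since the transformation compresses low counts, and limma-voom on the recovered reads gave 6.25. Thbs1 passed the filter on low values only through its serum libraries, so that among tested genes it had to differ, and it was not tested when any of the 6 serum libraries was left out.

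**Figure D1:**
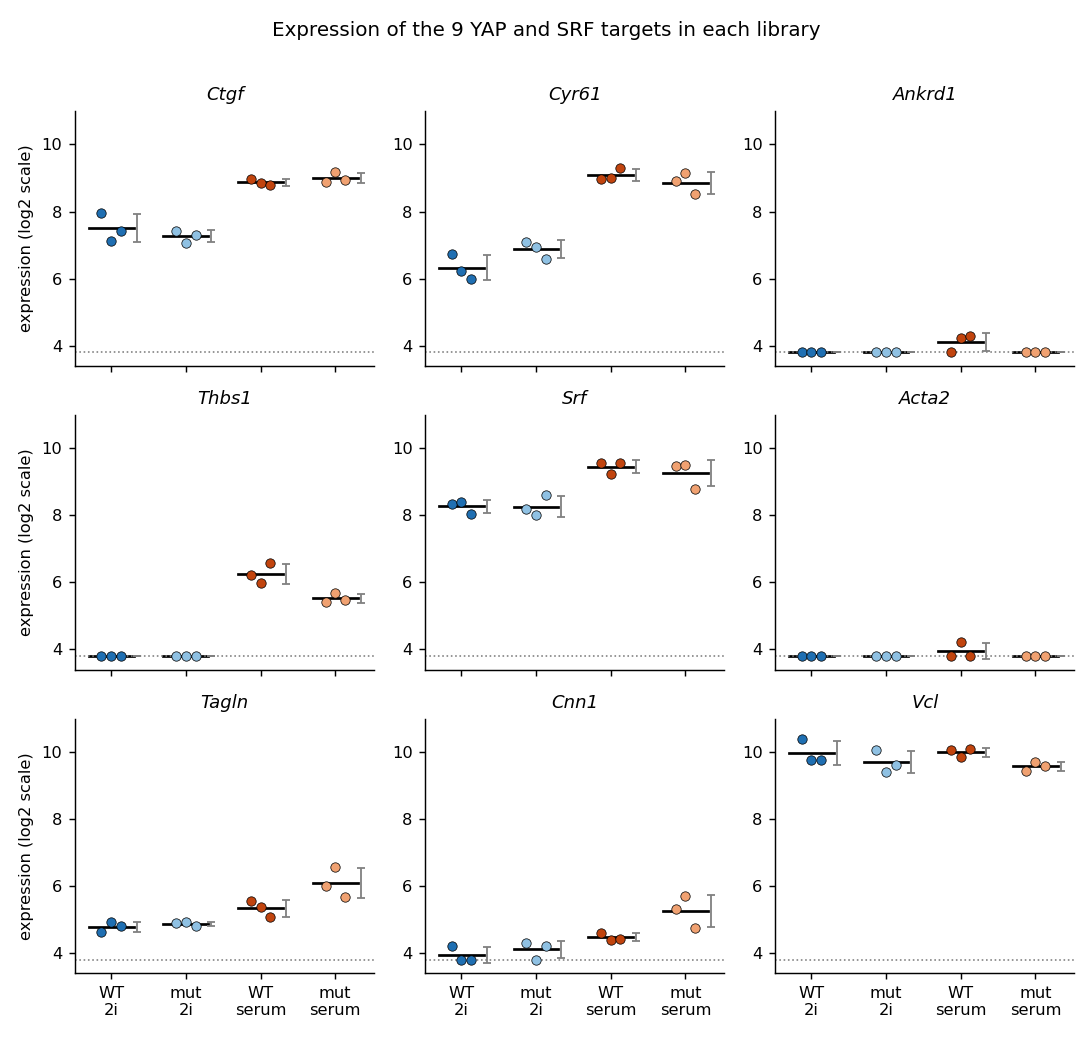
Expression of each of the 9 genes on the log2 scale of the deposited values (y axis) in the 4 groups (x axis), with 1 point per library, a line at the group mean, a bar of ± SD (n = 3) and a dotted line at the value of a count of 0. Ctgf, Cyr61, Thbs1, Srf, Tagln and Cnn1 have every serum library above every 2i library, Vcl overlaps, and Ankrd1 and Acta2 stay at or near the dotted line.

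Srf itself, which encodes the serum response factor and whose promoter is known to be bound by its own product, was also higher in serum. In 2i it had 298, 309.8 and 237 normalised reads in WT cells and 263, 229 and 363 in mutant cells, and in serum it had 721, 573 and 733 in WT and 682, 695 and 418 in mutant cells. Serum and 2i did not overlap, although mutant replicate 3 was both the highest 2i library and the lowest serum library. The difference over both lines was 1.09 (SE 0.15, adjusted p = 1.66e-05, limma), or 2.25-fold in mean normalised reads, with 1.19 in WT (adjusted p = 0.000431) and 0.99 in mutant cells (adjusted p = 0.00188, limma). Srf lies at chr17:46683788-46693111 on the minus strand of mm9.

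Ankrd1, which encodes a nuclear ankyrin repeat protein of heart and muscle and is widely used as a YAP reporter gene, was close to absent. It had 4 reads over all 12 libraries, which fell in 2 WT libraries in serum, and was 0 in the other groups. Acta2, the smooth muscle α-actin, had 1 read in all, again in WT cells in serum. Neither passed the filter, and no fold is given for either, since their sums lie at or near the floor. In mm9, Ankrd1 lies at chr19:36186455-36194334 and Acta2 at chr19:34315580-34329826, both on the minus strand.

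The contractile genes Tagln and Cnn1 were low but higher in serum. Tagln encodes the actin-binding protein transgelin and lies at chr9:45737711-45744141 on the minus strand of mm9. It had 4.7, 8.8 and 7.2 normalised reads in WT cells and 8.5, 8.7 and 6.9 in mutant cells in 2i, against 23.5, 18.1 and 11.7 in WT and 39.9, 70.0 and 27.6 in mutant cells in serum. All serum libraries were above all 2i libraries, and the mutant serum libraries were the highest of all. The difference over both lines was 0.89 (SE 0.15, adjusted p = 0.000169, limma), or 4.27-fold in mean normalised reads, and limma-voom on the recovered reads gave 1.77. Within the lines it was called in mutant cells, with 1.23 (adjusted p = 0.000478), and not in WT cells, with 0.55 (adjusted p = 0.0608, limma). Exons of Pcsk7 on the other strand overlap 65 of the 1586 exon bases of Tagln, and Pcsk7 was itself higher in serum by 0.83 (adjusted p = 0.000252, limma), a gene whose part in the value was not tested.

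Cnn1 encodes calponin 1, which binds actin and slows the myosin ATPase, and lies at chr9:21903725-21914074 on the plus strand of mm9. It had 5 reads over the 6 libraries in 2i and 54 in serum. In 2i it had 1.2, 0.0 and 0.0 normalised reads in WT cells and 1.7, 0.0 and 1.1 in mutant cells. In serum it had 4.4, 2.4 and 2.6 in WT cells and 16.5, 28.0 and 6.4 in mutant cells. The media did not overlap, and within serum the lowest mutant library lay above the highest WT library. Its mean was below the filter, and without a filter the difference over both lines was 0.84 (adjusted p = 0.000409, limma). Within the lines it was 1.15 in mutant cells (adjusted p = 0.00123) and 0.53 in WT cells, which was not called (adjusted p = 0.0828, limma).

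Vcl, which encodes the focal adhesion protein vinculin, did not pass the test between the media. It had 1317, 845 and 838 normalised reads in WT cells and 1034, 648 and 767 in mutant cells in 2i, and 1031, 892 and 1053 in WT and 662, 809 and 737 in mutant cells in serum. The ranges of the media overlapped, and WT replicate 1 in 2i was the highest library. The difference was -0.05 (SE 0.14, adjusted p = 0.769, limma), and its promoter is the stretch above that holds both motifs. Vcl lies at chr14:21748655-21852895 on the plus strand of mm9, and exons of Ap3m1 on the other strand overlap 2087 of its 5229 exon bases. Ap3m1 had 715 to 2114 reads per library and differed between media by -0.08 (adjusted p = 0.587, limma).

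Counted together, 5 of the 6 members that passed the filter were called higher in serum over both lines, and none was called lower. Leaving aside Thbs1, which had to differ once it passed, these were 4 of 5. Among all 14185 genes tested, 51.8% were called and 25.4% were called higher in serum, so that a call is common in this comparison. The members were chosen with earlier results of these data known, so their counts describe this set and do not test it. In WT cells 4 of the 6 were called, all higher, against 35.9% of all genes called and 17.3% called higher. In mutant cells 5 of the 6 were called higher, against 35.2% and 16.9% of all genes. The median difference of the 6 was 1.32, and that of all genes tested was -0.0018. Without a filter the median of the 9 members was 0.89. Libraries in serum lay above those in 2i without overlap for 6 of the 9 members. This was so for 5 of the 6 tested, or 4 of 5 without Thbs1, and for 12.1% of all genes tested. An exact two-sided permutation test that exchanged media within each rescue line gave p = 0.005, the smallest its 400 arrangements allow, for Ctgf, Cyr61, Thbs1, Srf, Tagln and Cnn1. The same exact test gave p = 0.7 for Vcl, 0.4 for Ankrd1 and 1 for Acta2. The members were thus not called alike, since Vcl did not pass the test and Ankrd1 and Acta2 had too few reads to be tested.

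**Figure D2:**
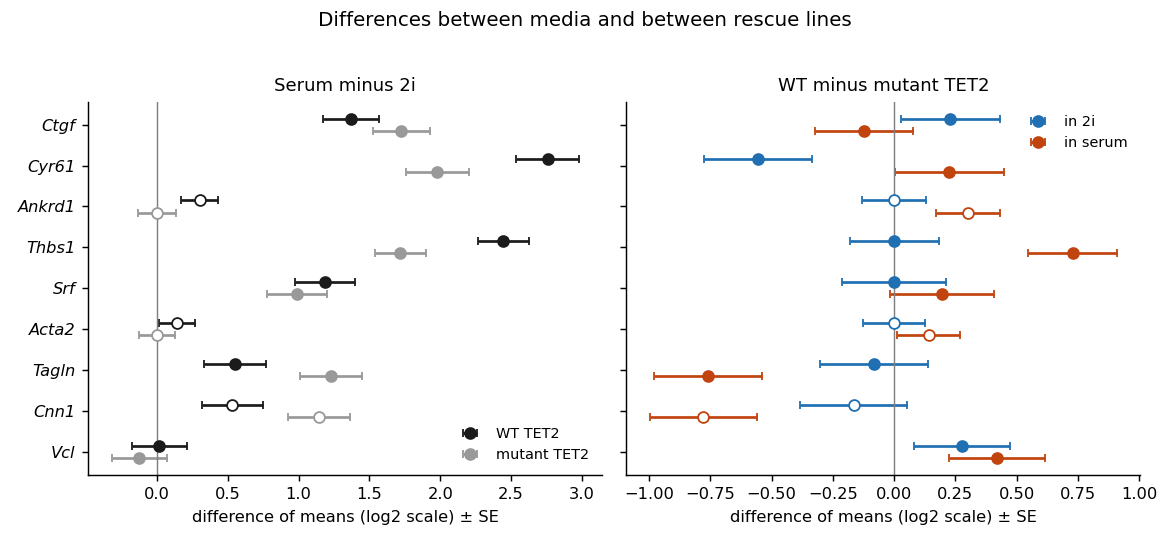
Differences of group means on the log2 scale (x axis) with bars of ± SE from the limma fit (3 libraries per group) for each gene (y axis), as serum minus 2i in either rescue line (left) and as WT minus mutant TET2 in either medium (right). Open symbols are members below the filter, taken from the fit without it. In the left panel Ctgf, Cyr61, Thbs1, Srf, Tagln and Cnn1 lie to the right of 0 in both lines. In the right panel, for serum, Thbs1 and Vcl lie furthest to the right of 0 and Tagln and Cnn1 furthest to the left.

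Levels per length put the members into a different order in each medium. In 2i, Vcl had the highest level, with 15.9 ± 4.73 RPKM (SD, n = 3) in WT and 13.1 ± 3.08 in mutant cells. Srf followed with 5.71 and 5.85 RPKM and Ctgf with 5.31 and 4.31, and these neighbours overlapped in both lines. Cyr61 came next with 2.32 ± 0.94 RPKM in WT cells, below all Ctgf libraries, and with 3.81 ± 0.76 in mutant cells, where it overlapped Ctgf. In serum, Cyr61 led in both lines, with 21.9 ± 3.58 RPKM in WT and 18.2 ± 4.10 in mutant cells. It lay above Vcl (16.3 RPKM) without overlap in WT cells but overlapped Ctgf (16.2 RPKM) in mutant cells. The contractile genes and Thbs1 stayed far below these levels, with 0.96 RPKM of Tagln, 0.74 of Thbs1 and 0.11 of Cnn1 in WT cells in serum, and 2.41, 0.31 and 0.60 in mutant cells. Thbs1 was thus above Cnn1 in WT cells without overlap, and in mutant cells Cnn1 had the higher mean and the genes overlapped.

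Ratios of a pair of genes within a library need no scaling between libraries. For this, 3 ratios between members and that of Wwtr1 to Yap1 were formed after the values had been seen, so they are a description only. The log2 ratio of Cyr61 to Ctgf per kilobase was -1.16, -0.89 and -1.57 in WT cells and -0.10, 0.14 and -0.60 in mutant cells in 2i. In serum it was 0.29, 0.45 and 0.83 in WT and 0.35, 0.26 and -0.16 in mutant cells. The change in balance was larger in WT cells, with a difference of 1.73 between the media, than in mutant cells, with 0.34, and in mutant cells the media overlapped. Cyr61 against Srf ran from -1.63 to -0.23 in 2i and from 0.39 to 0.77 in serum, with no overlap. Ctgf against Srf ran from -0.75 to 0.28 in 2i and from -0.11 to 0.87 in serum, which overlapped.

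**Figure D3:**
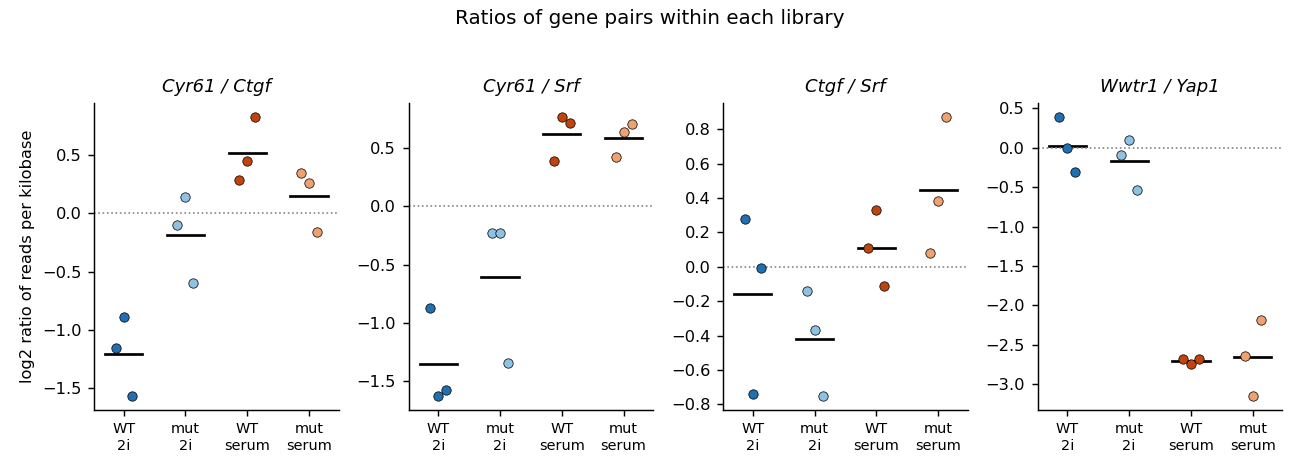
Log2 ratio of reads per kilobase for 4 gene pairs (y axis) in the 4 groups (x axis), with 1 point per library and a line at the group mean. Cyr61 to Srf lies from 0.39 to 0.77 in all serum libraries and from -1.63 to -0.23 in all 2i libraries, and Wwtr1 to Yap1 lies from -0.53 to 0.39 in 2i and from -3.15 to -2.19 in serum.

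What the catalytic activity of TET2 contributes, which was among the questions of the study, is addressed by the comparison of the rescue lines within a medium. The lines also differed in Tet2 RNA, which was 4.42-fold higher in WT than in mutant cells in 2i and 3.52-fold higher in serum. For the proteins, the paper reports similar levels of WT and mutant TET2 in the rescue lines by Western blot. The part of the RNA difference was not tested. In 2i no member was called, against 0.0987% (14) of all genes tested. None of the 6 tested members separated the lines without overlap, against 16.8% of all genes tested, and Thbs1 could not, having no read in 2i. The members below the filter did not separate them either, and of these Ankrd1 and Acta2 had no read in 2i. The same-numbered libraries in 2i moved together, and a fit that blocks on these numbers called 36 genes in all and still no member. Cyr61 had the largest difference among members, with WT minus mutant at -0.56 (SE 0.22, adjusted p = 0.315, limma) and the WT library lower in 3 of 3 same-numbered pairs, although the lines overlapped. Only Cyr61 among the members had an unadjusted p under 0.05 (0.0231, limma), as had 1882 of all 14185 genes tested. These values come from the fit without pairs. With the block, Cyr61 had an SE of 0.19, an unadjusted p of 0.00871 and an adjusted p of 0.134 (limma). Ctgf differed by 0.23 and Vcl by 0.28, each with the WT library higher in 3 of 3 pairs, and Tagln by -0.08, with adjusted p between 0.536 and 0.897 (limma). Srf differed by -0.0002 (SE 0.21) and Thbs1 was listed at 0 reads in both lines.

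In serum no member was called between the rescue lines either, against 0.254% (36) of all genes tested. The lines did not overlap for 4 of the 9 members, or 3 of the 6 tested, and this was the case for 22.4% of all genes tested. Thbs1 had the higher values in WT cells, with a difference of 0.73 (SE 0.18, adjusted p = 0.130, limma), with mean levels of 52.0 and 22.5 normalised reads, or 2.32-fold. Vcl differed in the same direction, by 0.42 (SE 0.20, adjusted p = 0.305, limma), with means of 992 and 736. Tagln had the lower values in WT cells, with a difference of -0.76 (SE 0.22, adjusted p = 0.172, limma), with means of 17.8 and 45.8 normalised reads. Cnn1 lay in the same direction as Tagln, with means of 3.16 and 17.0 and a difference of -0.78 without the filter (adjusted p = 0.181, limma). An exact permutation test of 3 against 3 libraries gave p = 0.1 for each of these 4, the smallest it can give. Thbs1, Tagln and Vcl had an unadjusted p under 0.05 (0.000932, 0.00304 and 0.0481, limma), and none passed the adjustment over all genes. Of all 14185 genes tested, 2295 had an unadjusted p under 0.05 in this comparison. Ctgf (-0.12), Cyr61 (0.22) and Srf (0.19) overlapped between the lines, with adjusted p from 0.635 to 0.795 (limma).

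Whether the response to the medium itself differed between the rescue lines was tested as an interaction. No gene was called, 0% of 14185, while 489 had an unadjusted p under 0.05. Among the members, the fitted serum minus 2i was larger in WT than in mutant cells by 0.78 for Cyr61 and 0.73 for Thbs1 and was smaller for Tagln, with a difference of -0.68 (unadjusted p 0.0239, 0.0115 and 0.0432). Their adjusted p was 0.976 (limma), as it was for Ctgf with -0.35. The differences were 0.19 for Srf (adjusted p = 0.98) and 0.14 for Vcl (adjusted p = 0.985, limma). Because Thbs1 had no read in 2i, its 0.73 only restates the difference between the lines in serum. With limma-voom its unadjusted p in the interaction was 0.23. A call of Tagln in mutant and not in WT cells thus does not show a difference between the lines, since its interaction was tested and not called.

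Other genes of both pathways were taken from lists of known targets and components, which leave out the 9 members. The lists are to be read beside all genes tested, of which 51.8% were called over both lines and 25.4% were called higher in serum. In WT cells these shares were 35.9% and 17.3%, and in mutant cells 35.2% and 16.9%. Of 19 further YAP/TEAD targets, 15 were tested, 8 were called higher in serum, 2 lower and 5 were not called, with a median difference of 0.51. The median was 0.35 over 18 genes without a filter and 0.79 with limma-voom. Under a stricter filter (mean at least 2 above the value of a count of 0) it was 0.92. The largest were Gadd45a (1.74), a DNA damage response gene, Igfbp3 (1.46), a carrier of insulin-like growth factors, F3 (1.39), the coagulation starter tissue factor, and Ptpn14 (1.26), a phosphatase that restrains YAP. The lower genes were Myof (-1.0), which acts in membrane repair, and Asap1 (-0.33), a GTPase activator. The call of Asap1 was lost with 7 of the 12 libraries left out in turn, without a filter and under 2 other scalings, and that of Crim1 (0.51), which is among the 8, was lost with 6 and without a filter. In WT cells 8 of the 15 were called higher and 1 lower, and in mutant cells 7 and 1.

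Of 28 cytoskeletal SRF targets, 20 were tested, with a median of 0.65, or 0.42 without a filter. Of the 20, 14 were called higher in serum, 4 lower and 2 were not called, beside 51.8% called and 25.4% called higher among all genes. Of these calls only that of Zyx (0.67) was lost with a library left out, with 2 of the 12. Cnn2 (2.30), a calponin of non-muscle cells, Tpm1 (1.71), a tropomyosin, Myl9 (1.68), a myosin light chain, and Actb (1.08), β-actin, were the largest, of which Myl9 passed the filter only through serum. Actb rose from 557 and 507 RPKM in WT and mutant cells in 2i to 1244 and 1049 in serum. The lower genes were the actin crosslinker Actn1 (-0.78), the intermediate filament gene Des (-0.66), the integrin Itgb1 (-0.54) and the tropomyosin Tpm4 (-0.37). Vcl, whose product binds α-actinin at adhesions, was the only tested SRF target among the 9 members that was not called. In WT cells 12 were called higher and 3 lower, and in mutant cells 9 and 2.

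Of 15 immediate early SRF targets, 10 were tested, 5 were called higher, 1 lower and 4 were not called, with a median of 0.47. Among all genes tested 51.8% were called, which is near the share in this list, and 25.4% were called higher. Egr1 (3.07), a zinc finger factor induced through ERK, had 0.0687 and 0.111 RPKM in WT and mutant cells in 2i and 5.91 and 3.88 in serum. Like Thbs1 it passed the filter only through serum and so had to differ. Nr4a1 (1.11), Ier2 (1.07) and Mcl1 (0.60) followed, and Fos (0.52) was the fifth, a call that was lost with 8 of the 12 libraries left out in turn, without a filter and with limma-voom. Dusp1 (-1.54), a phosphatase that inactivates MAP kinases, was lower in serum. With the libraries centred on their median or quantile-normalised, Junb and Zfp36 were called higher as well. In WT cells 6 were called higher and 1 lower, and in mutant cells 4 and 1.

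All 19 Hippo pathway components were tested, with 6 called higher in serum, 5 lower, 8 not called and a median of -0.09, beside the 51.8% called among all genes. The median was -0.0251 without WT 2i replicate 1 and -0.18 without mutant serum replicate 3. The coactivators moved apart, as Yap1 was higher by 0.82 (SE 0.11, adjusted p = 1.89e-05) and Wwtr1 was lower, with a difference of -1.66 (SE 0.17, adjusted p = 9.14e-07, limma). In 2i both stood at a similar level, 15.0 and 13.5 RPKM of Yap1 and 15.5 and 12.1 of Wwtr1 in WT and mutant cells. In serum Yap1 had 27.2 and 24.3 RPKM and Wwtr1 4.18 and 4.08. Among the DNA-binding partners, Tead4 (-1.18) and Tead2 (-0.65) were lower, and Tead1 (-0.19) and Tead3 (0.07) were not called. The kinase genes divided as well, since Stk3 (-1.18) was lower, Stk4 (0.63) and Lats2 (0.92) were higher and Lats1 (-0.18) was not called. Lats2 is also among the YAP/TEAD targets counted as higher above. Amot (0.73), Nf2 (0.64) and Vgll4 (0.44) were the other higher genes and the kinase adaptor Mob1a (-0.52) the other lower one. The call of Vgll4 was lost with 5 of the 12 libraries left out in turn.

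Of 6 SRF cofactors 5 were tested, with a median of 0.14, which was 0.07 without WT serum replicate 1 and 0.23 without mutant 2i replicate 3. Beside 51.8% called and 25.4% called higher among all genes tested, 2 were called, both higher in serum. These were Mkl1 (0.75, adjusted p = 0.000692, limma), which encodes MRTF-A, and the ternary complex factor Elk4 (0.50), whose call was lost with 4 of the 12 libraries left out in turn. Mkl2 (0.14), Elk1 (-0.03) and Elk3 (0.10) were not called. Myocd, the cofactor of cardiac and smooth muscle, had at most 1 read in a library and was not tested. No gene of these lists was called between the rescue lines in either medium or in the interaction.

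Paralogues of the members divided between the media, with 4 of 12 called higher, 3 lower and 5 not tested. Among all genes tested, 51.8% were called and 25.4% were called higher. Over the 7 paralogues tested the median was 0.44. The median was 0.0066 without WT serum replicate 1, with which Nov dropped out of the test, 0.05 without a filter and -0.52 under the stricter filter. Nov (1.42), which like Ctgf and Cyr61 encodes a CCN protein, Thbs3 (1.18), Cnn2 (2.30, also counted above) and Tagln3 (0.44) were higher in serum, Nov having passed the filter only through serum. Thbs2 (-0.50), Cnn3 (-0.52) and Tagln2 (-0.64) were lower. Cnn3 (211 and 210.2 RPKM in 2i, 141 and 157 in serum, WT and mutant) and Tagln2 (30.1 and 43.2, then 24.2 and 20.9) stood far above Cnn1 and Tagln in every group.

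**Figure D4:**
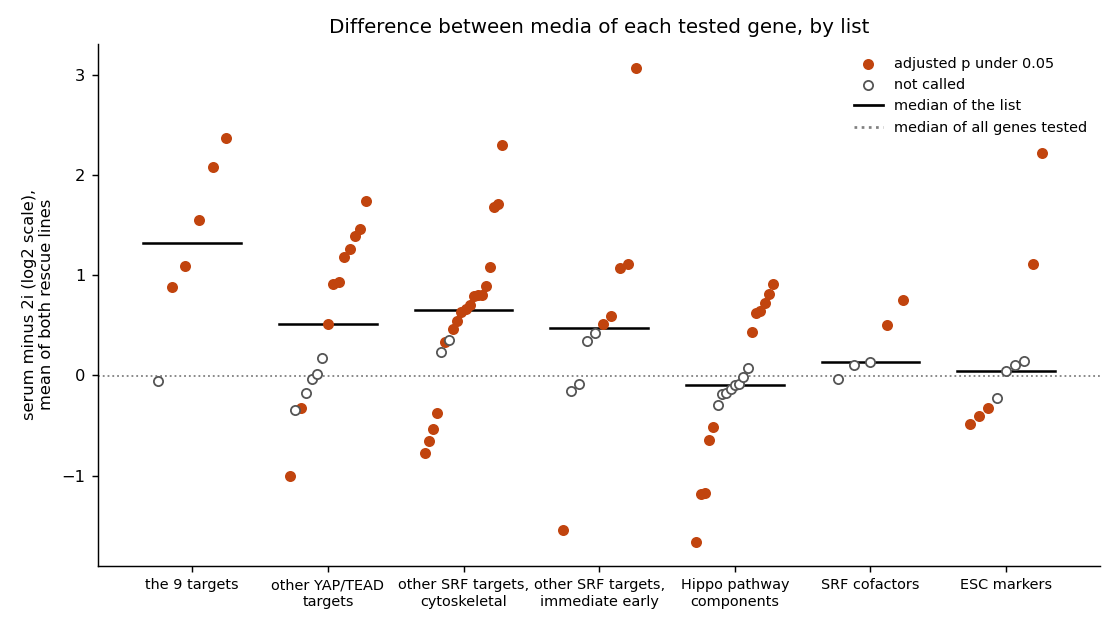
Difference between serum and 2i on the log2 scale, averaged over the rescue lines (y axis), for each tested gene of the 9 targets, of the lists of related genes and of the ESC markers (x axis). Filled points are called at adjusted p under 0.05 (limma), black lines are list medians and the dotted line is the median of all genes tested (-0.0018). The cytoskeletal SRF targets have 14 filled points above 0 and 4 below, and the Hippo components have 6 above and 5 below.

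Markers of other cell types were read beside these values, since fibroblasts and muscle cells express many of the members. A call between media was made for 51.8% of all genes tested. Of 10 fibroblast markers 3 were tested, 1 was called higher in serum (Twist1) and 1 lower (Thy1), no read of Col1a2, Col3a1, Dcn or Postn was found in any library, and the sum of the list was 3.68 to 5.59 RPKM in 2i libraries and 2.91 to 3.80 in serum libraries. Of 7 smooth muscle markers 2 were tested, Smtn being called higher and Des lower, both also counted among the cytoskeletal SRF targets. Without a filter 3 were called higher and 2 lower. Actg2 had no read, and Myh11 had at most 6 reads in a library. The sum was 3.79 to 8.89 RPKM in 2i and 6.38 to 10.8 in serum. Of 6 cardiomyocyte markers 3 were tested, and Tnni3 and Myl7 were called lower in serum. Without a filter 2 were called higher and 3 lower. Below the filter, Nkx2-5 had 0.14 and 0.18 RPKM in WT and mutant cells in 2i and 0.32 and 0.55 in serum. Myh6 rose as well, from 0 and 0.0073 to 0.086 and 0.15, while Tnnt2 fell from 0.27 and 0.17 to 0 in both lines. The sum was 6.73 to 17.3 RPKM in 2i and 2.91 to 7.50 in serum. Of 7 primitive endoderm markers 3 were tested, and 1 was called higher in serum (Dab2, which passed the filter only through serum). Without a filter 2 were called higher and 1 lower. Below the filter, Sox7 had 0 and 0.005 RPKM in WT and mutant cells in 2i and 0.51 and 0.25 in serum. Foxa2 had 0.048 and 0.057 in 2i and 0.0066 and 0 in serum. Afp had no read, and the sum was 0.518 to 1.84 RPKM in 2i and 1.24 to 1.98 in serum. Of 4 mesoderm markers 1 was tested, Eomes, which was higher in serum by 1.51 (adjusted p = 6.89e-08, limma), and the sum was 0.864 to 1.31 RPKM in 2i and 2.27 to 3.79 in serum. Most of that sum in serum was Eomes (2.62 and 2.03 RPKM in WT and mutant cells), while T, which was not tested, had 0.36 and 0.28 RPKM in 2i and 0.0147 and 0.0655 in serum. The part of cells with these markers in the values of the members was not tested, and in bulk RNA more cells of a kind and more RNA per cell cannot be told apart.

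The genes whose pattern over the 12 libraries was most like that of Ctgf and of Tagln were found by the root mean square difference of their log2-scale values, each gene centred at its own mean. For Ctgf, out of 14184 other tested genes, these were Msx2 (0.18), Slmo1 (0.20), Phc1 (0.20), Ece1 (0.21) and Ddx25 (0.21), where the median over all genes was 0.84. They were higher in serum by 1.45, 1.63, 1.60, 1.52 and 1.56 in this order. These lie close to the 1.55 of Ctgf, as the choice by likeness to Ctgf would give. For Tagln they were Alox5 (0.21), Vwa2 (0.24), Ccdc40 (0.25), Plaur (0.25) and Pou3f1 (0.25), with a median of 0.63 over all genes. All 5 had a higher mean in mutant than in WT cells in serum, as genes chosen for likeness to Tagln would, for instance 5.37 in WT and 5.87 in mutant cells for Alox5 on the log2 scale. No other member was among these 10 genes.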

How the data were processed

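Poly(A) RNA-seq of 12 libraries was used, grouped by the labels into 4 groups of 3. Per the labels, reads were trimmed with Trim Galore 0.3.3, aligned to mm9 with TopHat2 2.0.9 and normalised with DESeq2. The authors deposited variance-stabilised gene values on a log2 scale, in which every count of 0 has the value 3.81. The annotation behind the counting is not given in the sources used here. Inverting the transformation returned whole reads (tolerance 0.01) and the size factors, from which normalised reads and RPKM (exon lengths of GENCODE vM1, mm9) were computed. Counting error grows as reads fall, and reads are not independent molecules.

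Genes with a mean at least 1 above the lowest value (14185) were fitted with limma 3.58.1 in R 4.3.3, all 12 libraries in 1 fit of 4 groups with an intensity trend. Calls were made at an adjusted p (Benjamini-Hochberg) under 0.05. Single members were also compared by exact permutation tests. The labels number the replicates without saying whether they came from separate cultures, so p-values measure the spread between these libraries, which may be technical. Same-numbered libraries deviated together across the lines in 2i (correlations of 0.586, 0.30 and 0.385). Numbers taken from the labels were therefore treated as pairs there, but only in the counts of pairs and in the block. The main fit and the exact tests did not use them. In serum (0.161, -0.0652 and 0.189) and across media the numbers were not treated as pairs, although the block among the alternatives used them there too.

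The 9 members, the lists and the markers were chosen with earlier results of these data known. Named genes were all members, Hippo components and cofactors, the 4 largest called differences in each direction of the target lists, called paralogues, and the 5 genes most like Ctgf and Tagln. Genes named outside this rule (Crim1, Zyx, Junb, Zfp36, Setdb1, Tet2, overlapping genes and markers) were picked after values were seen or for checks. Repeat values were not used here. Alternatives were other filters, no trend, other scalings, a block, limma-voom, smaller fits, a difference over 1 and each library left out. Tables and figures were made with Python 3.11.15, numpy 2.4.6, pandas 2.3.3, scipy 1.17.1 and matplotlib 3.10.9.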

Additional observations from a re-analysis of the deposited data

How the results depend on the processing

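Ctgf, Cyr61, Srf and, where tested, Thbs1 kept their calls and directions between the media under every other fit run, with differences over both lines of 1.46 to 1.72, 2.29 to 2.78, 1.02 to 1.20 and 2.03 to 6.25. Tagln kept its call over both lines and in mutant cells, except under the stricter filter (mean at least 2 above the lowest value), which left it and Thbs1 untested, so that 3 members were called over both lines and 3 in mutant cells. In WT cells the difference of Tagln ran from 0.43 to 1.15. It was called when libraries were centred on the median (adjusted p = 0.0484, limma) and without mutant serum replicate 2 (0.036) or 3 (0.0389). The block on replicate numbers also gave a call (adjusted p = 0.0416, limma). It joins libraries across media, where the numbers were not treated as pairs. With each library left out in turn, 4 to 5 members were called over both lines, 3 to 4 in WT cells, 4 to 5 in mutant cells and 0 between rescue lines or in the interaction. The lower counts come from Thbs1, which leaving out any serum library took below the filter.

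With a required difference over 1, 1591 genes were called over both lines in place of 7342, 1745 in place of 5095 in WT and 1636 in place of 4993 in mutant cells. This rule also dropped Tagln over both lines and Srf in mutant cells. The count of all genes called between rescue lines moved as well. In 2i it was 14, but 9 with no filter, 9 with only the groups compared and 36 with the replicate block. In serum it was 36, but 18 with only the groups compared and 209 with the replicate block, under which still no member was called (lowest adjusted p 0.0568, for Tagln). The block moved no other call of a member. Leaving out single libraries gave 5 (without mutant 2i replicate 1) to 22 genes (without mutant serum replicate 3) in 2i and 12 (without WT serum replicate 1) to 82 (without mutant serum replicate 3) in serum. It gave 6542 to 7680 between media over both lines, 3500 to 5622 in WT, 3556 to 5205 in mutant cells and 0 to 1 for the interaction.

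Directions turned only for differences near 0 that were not called. With single libraries left out, Vcl ran from -0.127 to 0.0517 over both lines, -0.0901 to 0.227 in WT and -0.271 to 0.0548 in mutant cells between media, and from -0.0375 to 0.35 in the interaction. Srf ran from -0.131 to 0.172 between lines in 2i, -0.0338 to 0.315 in serum and -0.0335 to 0.326 in the interaction. Tagln between lines in 2i became 0.0448 with quantile normalization. The cause of these shifts was not tested. Low depth limits Thbs1, Tagln and above all Cnn1, Ankrd1 and Acta2, whose differences on the deposited scale are compressed.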
